A study of Mus musculus with 34 samples.

Results

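The hypoxia pathway was described in mouse cumulus cells (CCs) through 10 genes, Hif1a, Epas1, Arnt, Egln1, Egln2, Egln3, Vhl, Vegfa, Bnip3 and Adm. They were taken by symbol from the 25965 entries of the gene count table, and all 10 were found. The set was selected on measured values, because Egln1 was lower and Hif1a tended to be higher after 4 weeks of high-fat diet (HFD), so the values of the 10 genes in that contrast are given as a description, without a test. The rule for the set names no other contrast, but earlier results of these data were known when the genes were chosen.

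RNA was sequenced from 34 libraries of about 50 CCs each, 1 library per mouse, collected after superovulation from C57BL/6J females whose protocols began at 8 weeks of age. In the pharmacological hyperleptinemia model, mice received saline (16 C, n = 3) or 100 µg of leptin per day (16 L, n = 5) by intraperitoneal injection for 16 days. In the diet-induced obesity protocol, mice ate chow diet (CD, 11% of energy from fat) or HFD (58%) for 4 weeks (n = 5 and n = 5) or 16 weeks (n = 6 and n = 7), and 3 further libraries came from mice on the longer HFD that are labelled low weight gainers. The fat shares are those of the labels, and the study's methods give slightly different ones. The low weight gainers were set apart by their body weight and not by a treatment. The 4-week and 16-week groups differed in age as well as in time on diet.

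Cells sense oxygen through hypoxia-inducible factors (HIF). An α subunit, encoded by Hif1a or Epas1, pairs with the constitutive β subunit encoded by Arnt and switches on genes of glycolysis, blood vessel growth and mitochondrial turnover. When oxygen is plentiful, prolyl hydroxylases encoded by Egln1, Egln2 and Egln3 mark the α subunit, and the von Hippel-Lindau protein, encoded by Vhl, recruits the ubiquitin ligase that directs it to degradation. The control is therefore largely on protein, which RNA counts do not show. The ovulatory follicle has no blood vessels inside its granulosa layer, and HIF activity and Vegfa are known there from the time of the ovulatory signal.

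Hif1a lies on chromosome 12 (73901375 to 73947530, plus strand), Epas1 on chromosome 17 (86753907 to 86833410, plus strand) and Arnt on chromosome 3 (95434388 to 95497240, plus strand), in GRCm38 coordinates as deposited. Egln1 lies on chromosome 8 (124908596 to 124949254, minus strand), Egln2 on chromosome 7 (27158658 to 27166802, minus strand), Egln3 on chromosome 12 (54178981 to 54203860, minus strand) and Vhl on chromosome 6 (113623959 to 113631633, plus strand). The targets are Vegfa on chromosome 17 (46016993 to 46032377, minus strand), Bnip3 on chromosome 7 (138890836 to 138909519, minus strand) and Adm on chromosome 7 (110627669 to 110629819, plus strand).

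HIF binds a short core sequence, ACGTG, and several genes of the pathway are known to be HIF targets themselves. The letters ACGTG were searched on both strands (as ACGTG or CACGT) in the 250 bases before the RefSeq start of the 9 genes with a promoter entry (RefSeq, GRCm38.p6). Epas1 was not among them. Of the 9 first starts, 5 held the motif (55.6%), against 16.6% of the first starts of 27025 genes. The stretches are shown because they are the part of each promoter that carries the core, in capitals, with 12 bases on each side, written 5′ to 3′ along the gene's strand.
Hif1a, chr12:73907720-73907749, plus strand, motif from base -135: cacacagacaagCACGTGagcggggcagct
Hif1a, chr12:73907785-73907813, plus strand, motif from base -70: tggctgagagcaACGTGggctggggtggg
Egln1, chr8:124949306-124949334, minus strand, motif from base -68: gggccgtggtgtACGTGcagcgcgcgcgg
Egln2, chr7:27166834-27166862, minus strand, motif from base -48: agcctcctgtcaACGTGcggttcgcgcac
Egln3, chr12:54204087-54204115, minus strand, motif from base -229: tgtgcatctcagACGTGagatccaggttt
Bnip3, chr7:138909597-138909626, minus strand, motif from base -108: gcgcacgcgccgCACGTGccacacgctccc
The palindrome CACGTG in the Hif1a and Bnip3 promoters carries the core on both strands, with the 2 matches overlapping. No ACGTG was found in this window before the first starts of Arnt, Vhl, Adm and Vegfa, and a second, internal start of Vegfa held CACGT at -211, so that 6 of the 9 genes had a match over all their starts. The gene model of Hif1a in the count table begins upstream of this RefSeq start. A match describes letters and not binding, and a motif of 5 bases is common.

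Total counts ranged from 1104611 to 13207018 per library (median 4035580). Levels are given as CPM, counts relative to library size scaled over the 34 libraries by edgeR's TMM factors. In the library of lowest total count, 16 L replicate 21, 1 read was worth 0.688 CPM. A read was worth more in some others, as in 16 C replicate 1 (0.758 CPM). In 16-week HFD replicate 14, 5 reads made 4.59 CPM. Granulosa and CC markers were present throughout, led by Cyp11a1, the enzyme that starts steroid synthesis, and the 11 oocyte markers summed to at most 51.7 CPM in every library but 4-week HFD replicate 5 (361 CPM), led by Kit or Gdf9. Some libraries stood apart. Over genes, 16 L replicate 19 correlated best with a 4-week HFD library (r = 0.968) and less with its own group (mean r = 0.780). Replicates 1 and 2 of 16-week CD had mean correlations of 0.940 and 0.948 with 4-week HFD and of 0.876 and 0.889 with their own group. They were not alone in this, since by mean correlation all 6 libraries of 16-week CD and all 5 of 16 L, 16-week HFD replicate 12 and 4-week CD replicate 11 (0.961 with 4-week HFD and 0.920 with its own group) were nearer to another group. The other 4 libraries of 16-week CD were nearest to 16-week HFD or the low weight gainers, and 16 L replicates 20, 21 and 23 to 4-week CD. Replicate 18 of 16 L correlated at most 0.748 with any library outside its group. Its 8 oviduct epithelium markers summed to 35245 CPM, against at most 681 in the libraries of the other groups. These markers were at 1428, 1835 and 670 CPM in 16 L replicates 20, 21 and 23, and at 200 to 228 CPM in 16 C. The labels give no batch, and whether these libraries carry the right label was not tested. Values without 16 L replicates 18 and 19 or 16-week CD replicates 1 and 2 are given for the main results. In bulk RNA, fewer cells of a type and less RNA per cell cannot be told apart.

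The 10 genes covered a wide range of levels. Per kilobase of exon, so that genes can be compared, the mean level over the 34 libraries was 613 CPM for Bnip3 and 110 for Hif1a. Egln2 (12.5), Egln1 (10.3), Vegfa (10.1), Vhl (9.90) and Arnt (8.69) lay close together on this scale of pooled means. Adm (4.40), Epas1 (1.64) and Egln3 (1.07) were lowest. The order differed between groups, with Adm at 8.42 CPM per kilobase in 4-week HFD, above Arnt at 6.86, and with Arnt at 17.0 and Egln2 at 4.51 in 16 C. Hif1a was therefore the main α subunit RNA in CCs, and Egln1 and Egln2 the main hydroxylase RNAs.

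After 4 weeks of diet, the contrast by which the genes were chosen, mean Egln1 was 2.90-fold lower and mean Vegfa 4.13-fold lower in HFD than in CD, whereas mean Hif1a was 1.89-fold higher. Egln1, which encodes the main oxygen sensor of most cells, was at 46.0, 51.9, 45.3, 34.5 and 36.5 CPM in 4-week CD and at 14.3, 16.2, 14.6, 15.1 and 13.7 CPM in 4-week HFD. Every HFD library was below every CD library, and the HFD libraries were close to each other (14.8 ± 0.919 CPM, SD, n = 5). The fitted log2 fold change was -1.55 (SE 0.21). Vegfa, the main angiogenic growth factor of the follicle, was at 66.2, 93.6, 91.7, 150.5 and 56.4 CPM in CD and at 18.5, 14.6, 15.4, 40.5 and 21.8 CPM in HFD. These libraries did not overlap either, and the fitted log2 fold change was -2.06 (SE 0.34). Hif1a was at 817, 463, 469, 357 and 814 CPM in CD and at 1111, 1147, 1112, 936 and 1210 CPM in HFD. The lowest HFD library was above the highest CD library, and the fitted log2 fold change was 0.91 (SE 0.27). The groups did not overlap for these 3 genes, and 6.61% of the 11727 genes tested did not overlap in this contrast. The fit called 4.26% of all genes tested.

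The CD libraries were less alike than the HFD libraries for Hif1a. Replicates 1 and 11 were at 817 and 814 CPM and replicates 2, 7 and 8 at 357 to 469 CPM. Hif1a shares 330 of its 5896 exon bases with the antisense gene Gm15283, and whether the counting used strand was not given in the sources used here, so reads of the pair cannot be told apart there. Gm15283 had 1.68% to 4.49% as many counts as Hif1a in 4 of the 5 CD libraries and 10.6% in replicate 11. In 4-week HFD it had 10.7% to 11.8%. The same ratio was 0.513% to 1.44% in 16 L replicates 20, 21 and 23 and at least 7.04% in every other library. Its part in the Hif1a difference was not tested. Without CD replicates 7 and 8, a choice made after seeing the data, the log2 fold change of Hif1a was 0.66, that of Egln1 -1.60 and that of Vegfa -1.68, and the number of genes called over the whole table went from 499 to 0. Without CD replicate 11, which was near 4-week HFD by correlation, these log2 fold changes were 1.05, -1.61 and -2.20.

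**Figure D1:**
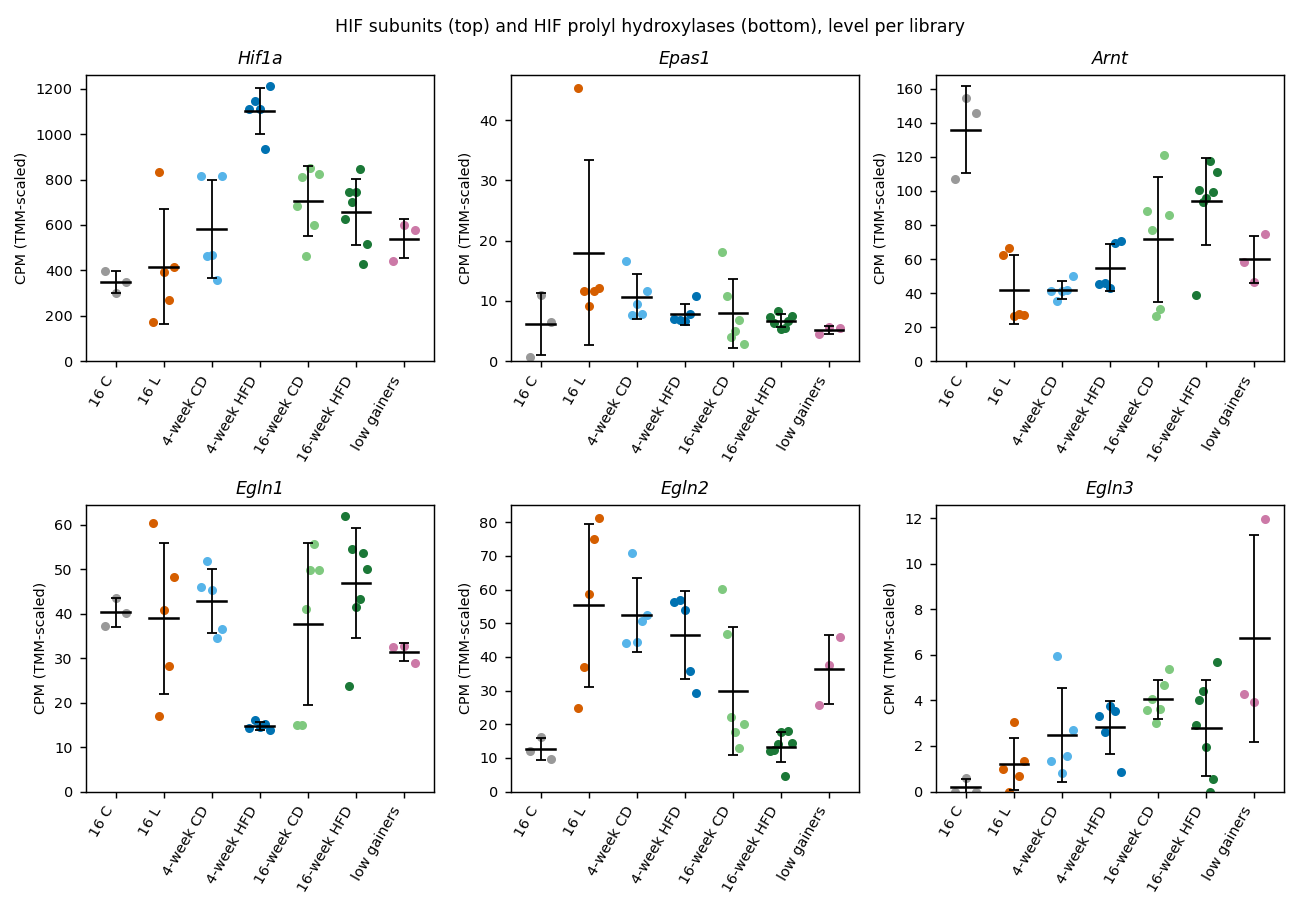
Level of the HIF subunit and prolyl hydroxylase genes in each of the 34 libraries, in TMM-scaled CPM on linear axes from 0. Each point is a library, black lines are group means and bars are SD. Egln1 lies between 13.7 and 16.2 CPM in 4-week HFD, and 16 L replicate 19 (17.0 CPM) and 16-week CD replicates 1 and 2 (15.0 and 15.0 CPM) lie near that band.

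The libraries of the remaining genes overlapped at 4 weeks. Adm, which encodes the vasodilator peptide adrenomedullin, was at 4.17 to 9.13 CPM in CD and 5.94 to 17.1 CPM in HFD (median 7.45 and 16.8), with a log2 fold change of 0.95 (SE 0.33). Of the 5 HFD libraries, 4 were above all CD libraries and replicate 14 was not. Bnip3, which encodes a mitochondrial protein of mitophagy and cell death, was at 166 to 826 CPM in CD and 612 to 995 CPM in HFD (log2 fold change 0.60, SE 0.39). Without CD replicates 7 and 8 the log2 fold change of Bnip3 was 0.092. Vhl (-0.44, SE 0.24), Epas1 (-0.47, SE 0.29), Arnt (0.38, SE 0.22), Egln3 (0.32, SE 0.55) and Egln2 (-0.20, SE 0.24) overlapped between the diets, in log2 fold changes. The oocyte markers summed to 361 CPM in 4-week HFD replicate 5 and to at most 16.5 CPM in the 4-week CD libraries, and Egln1 in replicate 5 (14.6 CPM) was like that of the other HFD libraries.

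Low levels of Egln1 were also found in 3 libraries labelled otherwise than 4-week HFD. Of the 34 libraries, 8 were at or below 17.0 CPM, namely the 5 of 4-week HFD, 16-week CD replicates 1 (15.0 CPM) and 2 (15.0 CPM) and 16 L replicate 19 (17.0 CPM). The next library, 16-week HFD replicate 10, was at 23.7 CPM. This gap depended on the scaling. Scaled by total counts alone, without the TMM factors, replicate 10 of 16-week HFD was at 17.1, inside the 4-week HFD range (15.2 to 18.8). On that scale 16-week CD replicates 1 and 2 (20.6 and 19.8) and 16 L replicate 19 (20.5) lay above all 4-week HFD libraries. In the same 3 libraries outside 4-week HFD, Hif1a was at 682, 813 and 832 CPM, below all 4-week HFD libraries (936 to 1210 CPM). These 3 libraries correlated more with 4-week HFD than with the groups they are labelled as, so their low Egln1 cannot be told apart from a wrong label. Replicate 11 of 4-week CD also correlated more with 4-week HFD than with its own group, and its Egln1 was at 36.5 CPM. Hif1a was as high as 852 CPM in 16-week CD libraries with Egln1 at 49.8 CPM.

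**Figure D2:**
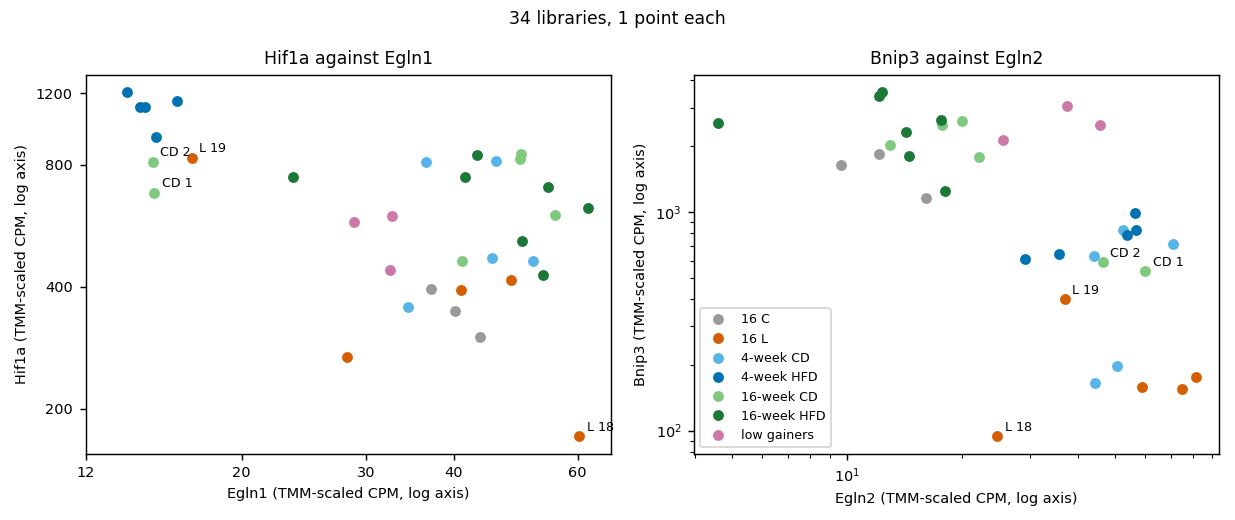
Left, Hif1a against Egln1, and right, Bnip3 against Egln2, in TMM-scaled CPM on log axes, 1 point per library and 1 colour per group. L 18 and L 19 mark 16 L replicates, and CD 1 and CD 2 mark 16-week CD replicates. On the left, CD 1, CD 2 and L 19 are near the 4-week HFD libraries in Egln1 (all between 13.7 and 17.0 CPM). Their Hif1a (682, 813 and 832 CPM) is below that of 4-week HFD (936 to 1210 CPM). On the right they lie within the range of the 4-week libraries.

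The 16 L and 16 C comparison asked how CCs differed after 16 days of leptin injection, outside the diet protocol. The study reported lower body weight under leptin than under saline midway through the injections, so leptin and body weight cannot be told apart. Of the 10 genes, 9 passed the filter on low counts and 3 of these were called by edgeR's quasi-likelihood test at a Benjamini-Hochberg adjusted p below 0.05, against 8.56% of the 11723 genes tested. Bnip3 and Arnt fell and Egln2 rose. The libraries of these 3 genes did not overlap between the groups, which held for 23.3% of all genes tested. Over all genes tested the median log2 fold change was 0.27, or 1.08 when scaled by total counts, and the values below can be read against that shift.

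Bnip3 was at 1839, 1166 and 1635 CPM in 16 C and at 94.2, 400.4, 158, 156 and 176 CPM in 16 L. The highest 16 L library, replicate 19, was still below the lowest control. Its log2 fold change was -2.97 (SE 0.50, edgeR adjusted p = 0.0149). The mean of the controls was 7.85 times that of 16 L. Bnip3 shares 504 of its 2265 exon bases with the antisense gene Gm45507, which had no entry in the count table. Reads of the pair cannot be told apart there, as the use of strand was not given. Arnt, the partner of both α subunits, was at 107, 155 and 146 CPM in 16 C and at 62.2, 66.3, 26.6, 27.5 and 27.3 CPM in 16 L. Replicates 18 and 19 were the 2 highest of the 16 L libraries and the log2 fold change was -1.68 (SE 0.42, edgeR adjusted p = 0.0430). Scaled by total counts the log2 fold change of Arnt was -0.91 and its edgeR adjusted p was 0.0818. Egln2, a hydroxylase found mostly in the nucleus, was at 12.1, 16.1 and 9.65 CPM in 16 C and at 24.7, 37.0, 58.8, 75.0 and 81.3 CPM in 16 L. Every 16 L library was above every control, and the log2 fold change was 2.11 (SE 0.48, edgeR adjusted p = 0.0331).

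Neither Hif1a nor Egln1 was called in 16 L. Hif1a was at 396, 301 and 349 CPM in 16 C and at 171, 832, 392, 269 and 416 CPM in 16 L, so that the controls lay inside the 16 L range. Its log2 fold change was 0.25 (SE 0.50, edgeR adjusted p = 0.754). Egln1 was at 37.1, 43.6 and 40.2 CPM in 16 C and at 60.4, 17.0, 40.9, 28.2 and 48.3 CPM in 16 L, with a log2 fold change of -0.04 (SE 0.43, edgeR adjusted p = 0.963). Without replicate 19 the log2 fold change was -0.15 for Hif1a and 0.17 for Egln1, and without replicates 18 and 19 it was 0.08 and 0.0064. Vegfa was at 28.8, 62.1 and 28.2 CPM in 16 C. In 16 L it was at 11.7 and 10.9 CPM in replicates 18 and 19 and at 50.2 to 57.5 CPM in the other 3 libraries. Its log2 fold change was -0.16 (SE 0.63, edgeR adjusted p = 0.880), and it was 0.42 without replicates 18 and 19 and 0.78 with total counts. With limma-voom, which called 63.8% of all genes, it was 0.69 (adjusted p = 0.0379), so its direction was not settled.

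Epas1, the second α subunit gene, was at 45.3 CPM in 16 L replicate 18, the library with the highest oviduct markers. In the other 16 L libraries it was at 9.14 to 12.1 CPM. In 16 C it was at 0.758, 11.0 and 6.56 CPM. The log2 fold change was 1.51 (SE 0.81, edgeR adjusted p = 0.224), and it was 0.63 without replicate 18. Vhl (0.30, SE 0.32) and Adm (1.05, SE 0.94) did not pass the test either. Egln3, which is induced by HIF in many cells, did not pass the filter, with 18 reads in the 5 libraries of 16 L and 5 reads in the 3 of 16 C. The difference of its mean log2(CPM + 1) was 0.78 (exact permutation test, two-sided, p = 0.161, where the smallest p that 56 splits allow is 0.0179). The pseudocount of 1 understates changes of a gene this low.

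The calls of Bnip3, Arnt and Egln2 depended on which libraries were in the fit. Over the fits without 1 library the log2 fold change was -3.39 to -2.83 for Bnip3, -1.96 to -1.54 for Arnt and 1.93 to 2.36 for Egln2. Each call was lost when any 1 of the 3 controls or 16 L replicate 20, 21 or 23 was left out (edgeR adjusted p up to 0.0831 for Bnip3, 0.165 for Egln2 and 0.169 for Arnt), and each call was retained without replicate 18 or without replicate 19. Without both of these libraries the log2 fold changes were -3.20 for Bnip3, -2.29 for Arnt and 2.50 for Egln2, with edgeR adjusted p of 3.77e-06, 1.06e-05 and 1.97e-05. That fit, added after seeing the data, called 6290 of the 10562 genes tested, so these p-values do not single out the 3 genes. The 16 L libraries it kept, replicates 20, 21 and 23, held 670 to 1835 CPM of oviduct markers, against 200 to 228 CPM in 16 C. Markers of other cells and of cumulus expansion moved with the groups. The 10 expansion markers summed to 48.2 to 963 CPM in 16 L and 1658 to 2564 CPM in 16 C. The 5 red blood cell markers reached 15792 CPM in 16 L and 51.1 CPM in 16 C, and the 8 oviduct markers were at 129 to 35245 CPM and 200 to 228 CPM, with Foxj1, Sox17 and Muc1 at 0 in 16 C. The 12 macrophage and neutrophil markers were at 81.3 to 1425 CPM and 116 to 765 CPM. The 11 oocyte markers did not overlap, at 11.8 to 51.7 CPM in 16 L and 1.52 to 1.93 CPM in 16 C. In 16 L they were led by Kit (mean 13.6 CPM), with Zp1, Figla and Oosp1 at 0. In 16 C they were led by Gdf9 (mean 1.02 CPM), with 8 of the 11 at 0. The 8 theca and stroma markers were at 3.50 to 1693 CPM and 0.758 to 3.79 CPM, and the 16 granulosa and CC markers at 1098 to 4450 CPM and 3873 to 3983 CPM. Their part in these calls was not tested.

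**Figure D3:**
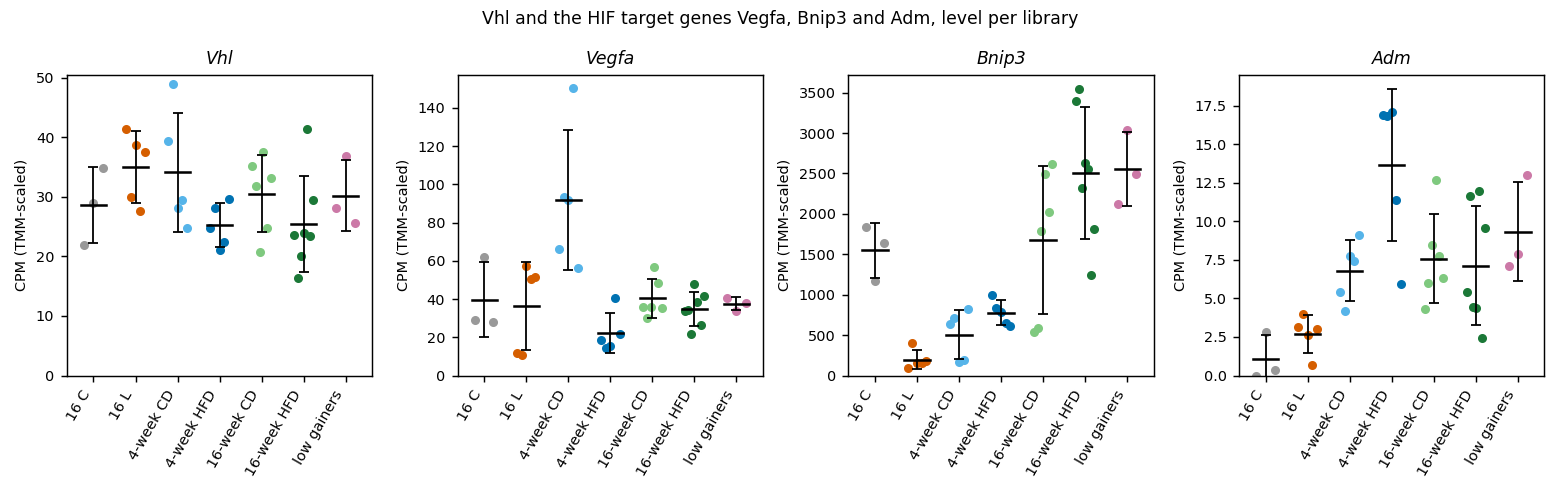
Level of Vhl and of the HIF target genes Vegfa, Bnip3 and Adm in each of the 34 libraries, in TMM-scaled CPM on linear axes from 0, with group means (lines) and SD (bars). Bnip3 is between 94.2 and 400.4 CPM in 16 L and between 1166 and 1839 CPM in 16 C, and Vegfa is highest in 4-week CD (56.4 to 150.5 CPM).

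After 16 weeks of diet, 0 of the 10 genes were called in HFD against CD by edgeR's quasi-likelihood test, with 0.0276% of 10861 genes called. At an unadjusted p below 0.05 the count was 1, where 25.3% of all genes passed. DESeq2 called 1 of the 10, with 9.72% of all genes, and limma-voom 0, with 0.046%. That gene was Egln2 in each case. It was at 12.1, 12.3, 14.2, 17.6, 4.59, 18.03 and 14.5 CPM in HFD. In CD it was at 12.97 to 22.1 CPM in 4 libraries and at 60.1 and 46.7 CPM in replicates 1 and 2. The log2 fold change was -1.17 (SE 0.37, edgeR adjusted p = 0.0793). Without CD replicate 9 it was called (edgeR adjusted p = 0.0189), and without CD replicates 1 and 2 it was -0.36 (SE 0.28, edgeR adjusted p = 0.686). The libraries of the diets overlapped for each of the 10 genes, and 0.976% of all genes tested did not overlap.

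Egln1, low in 4-week HFD, was at 62.0, 23.7, 54.5, 41.5, 43.2, 53.6 and 49.95 CPM in 16-week HFD. In 16-week CD it was at 41.1 to 55.7 CPM in 4 libraries and at 15.0 and 15.0 CPM in replicates 1 and 2. The log2 fold change was 0.34 (SE 0.31, edgeR adjusted p = 0.493) with all libraries and -0.02 without those 2. Hif1a was at 428, 703 and 844 CPM (lowest, median, highest) in 16-week HFD and at 462, 747 and 852 CPM in CD, a log2 fold change of -0.10 (SE 0.24, edgeR adjusted p = 0.812). Vegfa was at 21.6, 34.3 and 47.8 CPM in HFD and 30.2, 36.0 and 57.0 CPM in CD, a log2 fold change of -0.21 (SE 0.22). Side by side, the log2 fold changes of HFD against CD at 4 and 16 weeks were -1.55 and 0.34 for Egln1, 0.91 and -0.10 for Hif1a and -2.06 and -0.21 for Vegfa. The difference between the times was not tested, because the 4-week contrast chose the genes.

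Bnip3 was at 1243, 2559 and 3550 CPM in 16-week HFD. In 16-week CD it was at 1790 to 2611 CPM in 4 libraries and at 535 and 589 CPM in replicates 1 and 2, and the log2 fold change was 0.60 (SE 0.40, edgeR adjusted p = 0.332), or 0.22 without those 2 libraries. Arnt was at 76.7 to 121 CPM in 4 of the CD libraries and at 26.3 and 30.8 CPM in replicates 5 and 8, and it was at 39.1 CPM in HFD replicate 6 and 93.3 to 118 CPM in the other HFD libraries. Its log2 fold change was 0.38 (SE 0.34). Both groups thus held libraries of low Arnt. Epas1 (-0.28, SE 0.39), Egln3 (-0.46, SE 0.49), Vhl (-0.27, SE 0.23) and Adm (-0.09, SE 0.39) did not pass the test. Without CD replicates 1 and 2, the log2 fold change was 0.55 for Epas1, 0.53 for Arnt, -0.44 for Egln3, -0.14 for Vhl, -0.29 for Vegfa, -0.27 for Adm and -0.00071 for Hif1a, none of them called.

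**Figure D4:**
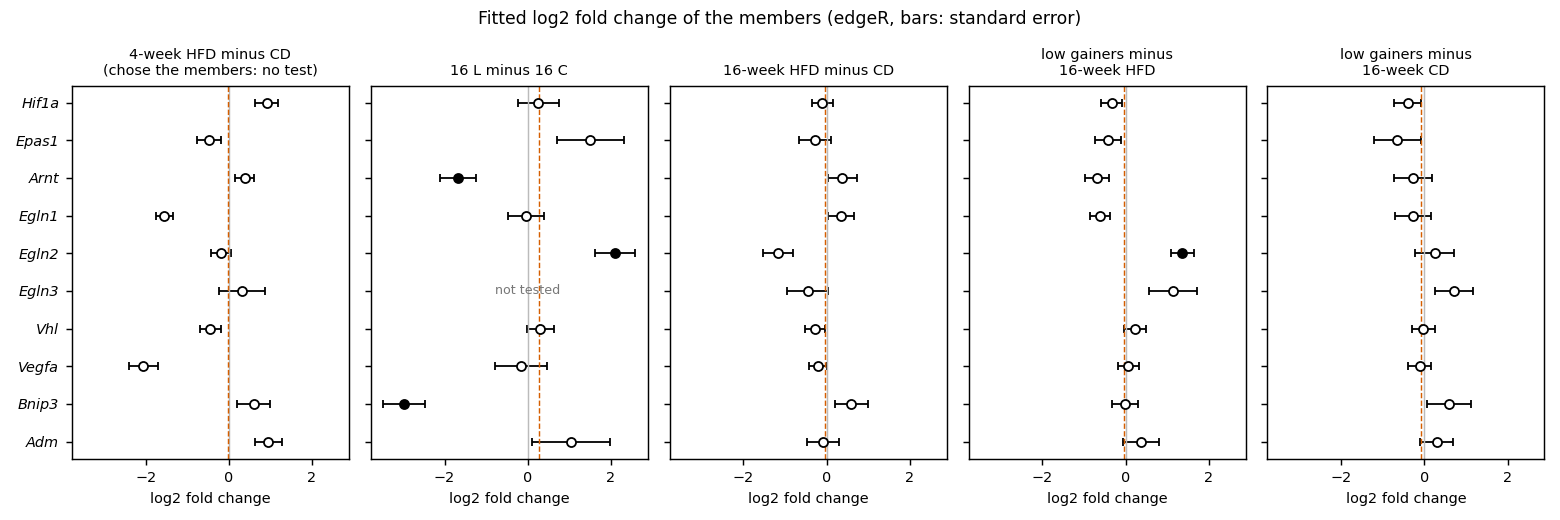
Fitted log2 fold change of the 10 genes in 5 comparisons, with bars of 1 standard error. Filled points were called by edgeR in a tested comparison, open points were not, the dashed line is the median of all genes tested, and the 4-week panel is a description without a test. Bnip3 (-2.97), Arnt (-1.68) and Egln2 (2.11) are filled in 16 L and Egln2 (1.37) in the low weight gainers against 16-week HFD.

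The low weight gainers were set against the other 16-week HFD mice to ask how CCs differed between mice on the same diet. Egln2 was the only one of the 10 genes called, against 20.7% of the 11258 genes tested, so the share of the set, 10.0%, was not above that of all genes. Egln2 was at 25.6, 37.5 and 45.8 CPM in the low weight gainers, above all 7 libraries of 16-week HFD (4.59 to 18.03 CPM), as happened in either direction for 20.4% of all genes. The log2 fold change was 1.37 (SE 0.28, edgeR adjusted p = 0.0039). The call held in 10 of 10 fits that left out a library, with edgeR adjusted p between 0.00451 and 0.0476, and Egln2 was not tested where at least 10 counts were asked of every library, since HFD replicate 14 had 5.

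Egln1 was at 32.5, 32.7 and 28.9 CPM in the low weight gainers and at 23.7, 49.95 and 62.0 CPM (lowest, median, highest) in 16-week HFD. All HFD libraries but replicate 10 were above the low weight gainers. The log2 fold change was -0.62 (SE 0.25, edgeR adjusted p = 0.0803), and without HFD replicate 10 it was -0.71 (edgeR adjusted p = 0.0212). Arnt was at 58.1, 46.6 and 74.5 CPM in the low weight gainers, below all HFD libraries except replicate 6. Its log2 fold change was -0.69 (SE 0.29, edgeR adjusted p = 0.0920), and without HFD replicate 6 its edgeR adjusted p was 0.0100. Egln3 was at 4.29, 3.93 and 12.0 CPM against 0 to 5.69 CPM, a log2 fold change of 1.15 (SE 0.58, edgeR adjusted p = 0.163) that was 0.45 without low weight gainer replicate 23.

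Bnip3 was at 2126, 3041 and 2490 CPM in the low weight gainers and at 1243 to 3550 CPM in 16-week HFD, with a log2 fold change of -0.01 (SE 0.31, edgeR adjusted p = 0.978). Vegfa was at 40.7, 33.9 and 38.03 CPM against 21.6 to 47.8 CPM (0.07, SE 0.24). Hif1a was at 441, 599 and 578 CPM, all within the HFD range (-0.33, SE 0.25, edgeR adjusted p = 0.361). Epas1 (-0.42, SE 0.32), Vhl (0.22, SE 0.26) and Adm (0.38, SE 0.43) did not pass the test. The 16 granulosa and CC markers summed to 6219 to 7034 CPM in the low weight gainers and 3383 to 4728 CPM in 16-week HFD, while Amh was at 0 in the former. The 10 expansion markers summed to 1073 to 1240 CPM and 1154 to 3767 CPM. Whether these differences had a part in the Egln2 call was not tested.

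Against 16-week CD, 0 of the 10 genes were called in the low weight gainers by edgeR, at an unadjusted p below 0.05, by DESeq2 or by limma-voom, and edgeR called 0.00861% of 11620 genes. None of the 10 was without overlap, which 7.52% of all genes were. Egln2 in the low weight gainers, at 36.3 ± 10.2 CPM (SD, n = 3), lay within the range of 16-week CD, 12.97 to 60.1 CPM, and its log2 fold change was 0.25 (SE 0.47, edgeR adjusted p = 0.885). Egln1 was -0.27 (SE 0.44), Hif1a -0.40 (SE 0.33), Egln3 0.72 (SE 0.46) and Bnip3 0.60 (SE 0.53) in log2 fold change. Without CD replicates 1 and 2 these were 1.00 for Egln2 (edgeR adjusted p = 0.162), -0.64 for Egln1, -0.34 for Hif1a, 0.71 for Egln3 and 0.20 for Bnip3, and none was called. This comparison shares the low weight gainers with the preceding one.

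Ordered by group mean, Hif1a was highest in 4-week HFD (1103 ± 102 CPM, n = 5), followed by 16-week CD (706 ± 154, n = 6), 16-week HFD (658 ± 145, n = 7), 4-week CD (584 ± 216, n = 5), low weight gainers (539 ± 85.8, n = 3), 16 L (416 ± 253, n = 5) and 16 C (348 ± 47.4, n = 3). Only the first step of this order, from 4-week HFD to 16-week CD, was free of overlap between libraries. Egln1 ran from 46.9 ± 12.4 CPM in 16-week HFD through 42.8 ± 7.20 in 4-week CD, 40.3 ± 3.21 in 16 C, 38.9 ± 16.9 in 16 L, 37.7 ± 18.2 in 16-week CD and 31.4 ± 2.12 in low weight gainers to 14.8 ± 0.919 in 4-week HFD. All neighbours overlapped except the last pair. The coefficient of variation of Egln1 was 6.21% in 4-week HFD and 48.3% in 16-week CD, the group with 2 low libraries. These orders depended in part on the scaling. By total counts alone, mean Egln1 was highest in 4-week CD (53.7) and 16 L (45.7). It was then 39.0 in 16-week HFD, 35.9 in 16-week CD, 28.1 in low weight gainers, 27.6 in 16 C and 17.0 in 4-week HFD. For Hif1a, 4-week HFD stayed highest on that scale (1267), and 16 L (514) passed the low weight gainers (484).

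Egln2 was highest in 16 L (55.3 ± 24.3 CPM), 4-week CD (52.5 ± 11.0) and 4-week HFD (46.4 ± 13.03), and lowest in 16-week HFD (13.3 ± 4.49) and 16 C (12.6 ± 3.25), and neighbours in its order overlapped throughout. Bnip3 was highest in low weight gainers (2553 ± 460.5 CPM), 16-week HFD (2501 ± 817) and 16-week CD (1674 ± 913), then 16 C (1547 ± 345), 4-week HFD (774 ± 154), 4-week CD (507 ± 305) and 16 L (197 ± 118). The step from 16 C to 4-week HFD was free of overlap. Every 4-week and 16 L library was at or below 995 CPM of Bnip3, as were 16-week CD replicates 1 and 2, and every other library was at or above 1166 CPM. The TMM factor, which follows the make-up of a library's RNA, was 1.11 to 1.39 in the 4-week libraries and 0.640 to 0.891 in 16 C and 16-week HFD. Scaled by total counts alone, 16 C and 4-week HFD overlapped in Bnip3, with 16 C replicate 2 at 746 and 4-week HFD at 677 to 1133.

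Vegfa was highest in 4-week CD (91.7 ± 36.6 CPM), between 34.9 and 40.5 CPM by group mean in 5 groups, and lowest in 4-week HFD (22.2 ± 10.6). By total counts alone these 5 groups spread from 26.8 (16 C) to 46.4 (16 L). Arnt was highest in 16 C (136 ± 25.5 CPM) and lowest in 4-week CD (41.9 ± 5.35) and 16 L (42.0 ± 20.4). Adm was highest in 4-week HFD (13.6 ± 4.93 CPM) and lowest in 16 L (2.70 ± 1.23) and 16 C (1.08 ± 1.54), where 2 of 3 libraries had 0 or 1 read. Vhl ran from 25.2 ± 3.70 CPM in 4-week HFD to 35.0 ± 5.96 in 16 L. Scaled by total counts alone, it was lowest in 16 C (19.5) and highest in 4-week CD (42.5). A processed pseudogene of Vhl on chromosome 17 is annotated, so reads shared with it could have been lost or split. Egln3 was highest in low weight gainers (6.73 ± 4.55 CPM, or 85 reads in all), of which replicate 23 (12.0 CPM) held 46 reads. The other low weight gainers, at 4.29 and 3.93 CPM, lay within 16-week CD (3.00 to 5.36 CPM). A library with 0 reads allows up to 3 reads (95% confidence, counting error only).

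The genes whose level followed that of Hif1a most closely over the 34 libraries, of 13236 genes compared, were Tmem106b (r = 0.879), Atad1 (r = 0.877), Msn (r = 0.860), Ifrd1 (r = 0.859) and Ctsl (r = 0.850), by Pearson's correlation of log2(CPM + 1). With the group means removed, Msn and Atad1 were still among the 5 closest. For Egln1 they were Atxn7l3b (r = 0.794), Mrps12 (r = 0.781), Rpp21 (r = 0.780), Mbd2 (r = 0.774) and 2900010M23Rik (r = 0.773), of which Mrps12 and 2900010M23Rik were still among the 5 closest within groups. These values are descriptions. The points share the make-up and depth of each library, including the libraries that stood apart.

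The wider pathway was read from 4 lists of 90 further genes, which cover oxygen sensing and HIF regulators (18 genes), HIF target genes (45), ligands and receptors of the VEGF and adrenomedullin systems (15) and mitophagy genes (14), with 2 genes on more than 1 list. These lists were chosen with earlier results of these data known. In the low weight gainers against 16-week HFD, 22 of the 75 tested were called (29.3%), 13 higher and 9 lower, against 20.7% of all genes. In 16 L against 16 C, 7 of 77 were called (9.09%), 3 higher and 4 lower, against 8.56% of all genes. At 16 weeks of HFD and in low weight gainers against CD, edgeR called 0 of 74 and 0 of 77. The counts at an unadjusted p below 0.05 were 18 and 10, where 25.3% and 11.2% of all genes passed. DESeq2 called 8 and 2, with 9.72% and 2.11% of all genes, and limma-voom 0 and 1, with 0.046% and 1.84%, so the lists were near the shares of all genes. At 4 weeks, 2 of 75 were called (2.67%), Cul2 higher and Crebbp lower, against 4.26% of all genes.

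Among the regulators, 1 of 17 tested rose in the low weight gainers against 16-week HFD and 5 fell, against 10.8% of all genes higher and 9.93% lower, and the median log2 fold change was -0.24, against -0.03 for all genes. The coactivator genes Crebbp (-1.10, SE 0.21, edgeR adjusted p = 0.00291) and Ep300 (-0.95) fell. So did the chaperone genes Hsp90aa1 (-1.32, SE 0.25, edgeR adjusted p = 0.00266) and Hsp90ab1 (-0.73, edgeR adjusted p = 0.0479), and Rbx1 (-1.13), the RING subunit of the VHL ligase. Crebbp was at 24.2 to 27.4 CPM in the low weight gainers and 41.7 to 66.8 CPM in 16-week HFD, without overlap. Os9, whose product binds HIF-1α and the hydroxylases, rose in this comparison (0.98, SE 0.30) and in 16 L (1.86, SE 0.46, edgeR adjusted p = 0.0400), where it was the only regulator of 17 called (5.88%, below the 8.56% of all genes). Its level was 34.2 to 134 CPM in 16 L and 21.3 to 28.6 CPM in 16 C. The call of Hsp90ab1 was lost in 7 of 10 fits that left out a library, and that of Crebbp held in each of the 10. Over 7 other settings Hsp90ab1 was still called in 2. The call of Ep300 held in 8 of the 10 fits and was lost without low weight gainer replicate 21 or 23. It was also lost with total counts. The Os9 call against 16-week HFD was lost without HFD replicate 14 and without low weight gainer replicate 23, when the log2 fold change was 0.45.

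Among the HIF target genes, 10 of 39 tested rose in the low weight gainers and 4 fell, against 10.8% of all genes higher and 9.93% lower. Their median log2 fold change was 0.10, against -0.03 for all genes. The glycolytic genes Pfkl (1.82, SE 0.28, edgeR adjusted p = 0.00103) and Hk1 (1.79, SE 0.31, edgeR adjusted p = 0.00171) rose. Pfkl was at 325 to 649 CPM in the low weight gainers and 57.3 to 197 CPM in 16-week HFD, and Hk1 was at 14.7 to 27.1 CPM and 3.13 to 7.37 CPM, neither with overlap. Gapdh (1.10, SE 0.26) was also called. It had 7.73 to 12.2 CPM in 16-week HFD, and reads shared with its many processed pseudogenes could have been lost in counting. P4ha2 (1.08, SE 0.24), a collagen prolyl hydroxylase gene, rose. The others that rose were Slc2a1, Pgam1, Eno1, Slc16a3, Stc2 and Bhlhe40. Of the genes that fell, Vldlr (-1.06, SE 0.21), a lipoprotein receptor gene, was at 159 to 197 CPM against 268 to 390.3 CPM. Loxl2 (-0.92) and Plod2 (-0.87), which modify collagen, and Ndrg1 fell as well.

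In 16 L, 1 of 41 target genes tested rose and 3 fell (9.76% called), a share near the 8.56% of all genes, and the median log2 fold change was -0.25, against 0.27 for all genes. The hexokinase genes went in opposite directions. Hk1 rose from 3.03 to 5.09 CPM in 16 C to 11.7 to 31.2 CPM in 16 L (2.58, SE 0.47, edgeR adjusted p = 0.0187), while Hk2 fell from 487 to 580 CPM to 19.2 to 97.9 CPM (-3.17, SE 0.48, edgeR adjusted p = 0.0121). Ero1l and Fam162a fell. Of the 7 ligand and receptor genes tested, Nrp1, which encodes a VEGF co-receptor, fell (-1.17, SE 0.31, edgeR adjusted p = 0.0486), and the call was lost with total counts, with no filter and where 10 counts were asked of every library. Of the 13 mitophagy genes tested beside Bnip3, Pink1, the kinase that marks damaged mitochondria, rose in 16 L (1.60, SE 0.35, edgeR adjusted p = 0.0306), from 19.7 to 31.4 CPM to 54.5 to 99.7 CPM. In the low weight gainers against 16-week HFD, 2 of 13 mitophagy genes were called (15.4%), a share below the 20.7% of all genes. These were the receptor genes Fkbp8 (1.06, SE 0.24) and Sqstm1 (0.63, SE 0.21, edgeR adjusted p = 0.0447), which rose, and the call of Sqstm1 was lost in 6 of 10 fits that left out a library. The calls of Os9 and Pink1 in 16 L were also lost with no filter. Those of Os9, Hk1, Nrp1 and Pink1 were lost in 6 of 8 fits that left out a library, and that of Hk2 in 2 of 8. Without replicates 18 and 19 the log2 fold changes were 2.23 for Os9, 2.71 for Hk1, -2.71 for Hk2, -1.07 for Nrp1 and 1.81 for Pink1.

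The counts over the lists depended on single libraries. Without low weight gainer replicate 23 the 22 calls against 16-week HFD became 6, and without replicate 21 they became 14. Of the genes given with values, the fit without replicate 23 lost Ep300, Os9, Hsp90ab1, P4ha2, Loxl2, Gapdh, Plod2, Fkbp8 and Sqstm1. It retained Hsp90aa1, Crebbp, Rbx1, Pfkl, Hk1 and Vldlr. In a single fit of all 34 libraries the 22 calls became 4, where 487 of all 13236 genes tested were called. Of the genes given with values in that comparison, that fit retained Crebbp and Pfkl and lost Hsp90aa1, Rbx1, Ep300, Os9, Hsp90ab1, Hk1, Vldlr, P4ha2, Loxl2, Gapdh, Plod2, Fkbp8 and Sqstm1. In 16 L the 7 calls became 30 without replicate 18, 14 without replicate 19, 0 without replicate 1 or 3 of 16 C, and 1 without replicate 2 of 16 C or replicate 20, 21 or 23 of 16 L. At 16 weeks of HFD the 0 calls became 19 without CD replicate 9 and 3 without CD replicate 13. No share of all genes is given for the fits that left out a library. Their counts therefore cannot be told apart from a change of the whole table.

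**Figure D5:**
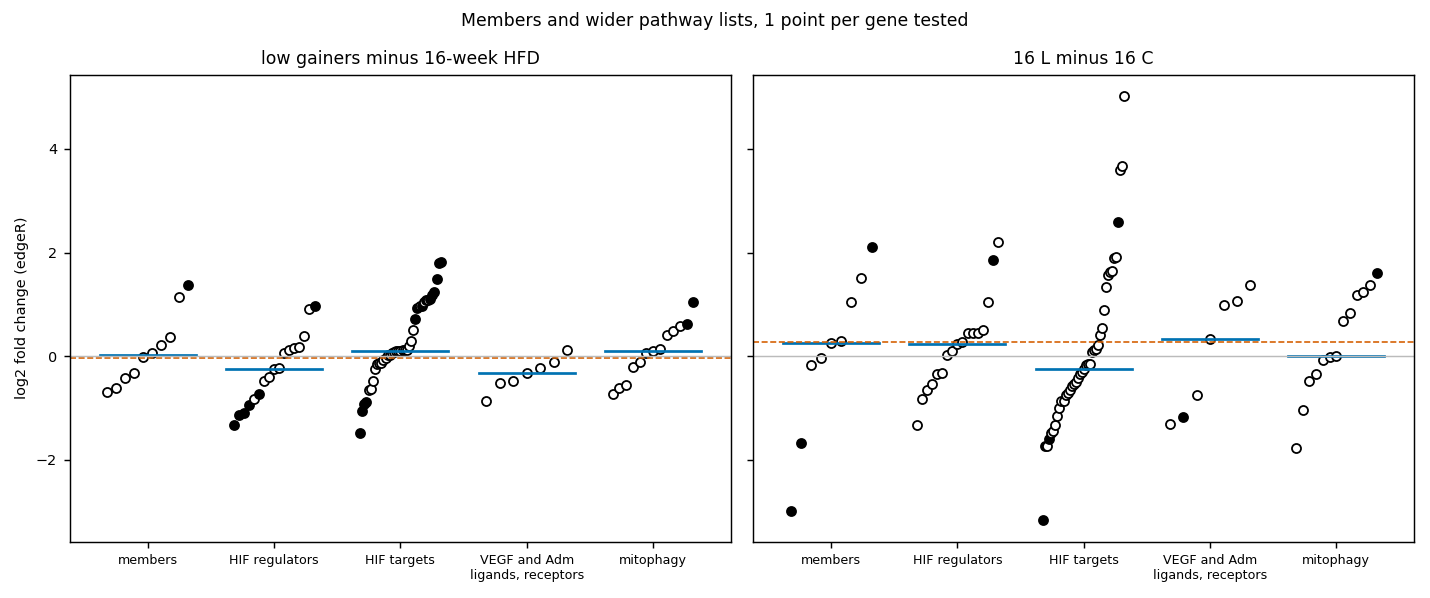
Fitted log2 fold change of the 10 genes (members) and of the 4 wider lists, 1 point per gene tested, ordered within each list. Filled points were called by edgeR, blue lines are list medians and the dashed line is the median of all genes tested. Left, 22 list genes are filled in the low weight gainers against 16-week HFD, and right, 7 in 16 L against 16 C.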

How the data were processed

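Per the labels and the study's methods, RNA of about 50 CCs per library was copied by Smart-seq2 with an oligo-dT primer and amplified, without molecular identifiers. The submitters' processing notes name Trim Galore 0.4.2, HISAT2 2.0.5 and GRCm38. The counting program and its use of strand were not given in the sources used here. The authors deposited whole read counts per gene, without normalization, and these counts were used as deposited. Of 72 pairs of libraries within groups, 0 were identical, and the counts of every pair differed beyond sampling noise (chi-square over its degrees of freedom at least 2.96).

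For every comparison the 2 groups concerned were fitted over the whole table in R 4.3.3 with edgeR 4.0.16 (filterByExpr, TMM, robust quasi-likelihood F-test, two-sided), with Benjamini-Hochberg adjustment over all genes tested and calls below 0.05. Egln3 in 16 L was compared by an exact permutation test of log2(CPM + 1). Alternatives were DESeq2 1.42.0, limma-voom (limma 3.58.1) with quality weights, RLE or total count scaling, dropping the filter, asking 10 counts of each library, a single fit of all 34 libraries, and leaving out each library. Fits without 2 libraries at once (16 L replicates 18 and 19, 16-week CD replicates 1 and 2, 4-week CD replicates 7 and 8) were added after seeing the data. The fits were tested on simulated data, and no statement here rests on that test.

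All 10 genes are named. From each wider list the called genes with values are at most 8 by adjusted p, and the 5 genes most like Hif1a and Egln1 are those of highest Pearson r. Other called genes of the lists are named without values. The members and lists were chosen with earlier results of these data known. List genes were matched by symbol, with all 90 found through current or older symbols, and 5 of 7 red blood cell markers were found. Exon lengths and overlaps are from GENCODE M21. P-values rest on the spread between libraries, with 1 library per mouse. Differences between mice cannot be told apart there from those of collecting and amplifying few cells.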

Additional observations from a re-analysis of the deposited data

Results flagged for a closer look

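Of 50 combinations of gene and group with 5 to 7 libraries, 5 held 1 library far from the others by Dixon's ratio on log2(CPM + 1), where chance alone gives about 1 in 20 such groups. Epas1 was at 45.3 CPM in 16 L replicate 18, the library with the highest oviduct, red blood cell and stroma markers. Arnt was at 39.1 CPM in 16-week HFD replicate 6, and Egln1 was at 23.7 CPM in 16-week HFD replicate 10. Egln2 was at 4.59 CPM (5 reads) in 16-week HFD replicate 14, the library of lowest total count in its group. Egln3 was at 0.859 CPM (12 reads) in 4-week HFD replicate 14, the library of highest total count in its group.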

How the results depend on the processing

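No paired analysis was possible because the groups compared share fewer than 2 replicate numbers in the labels. Over 39 results (a gene in a tested comparison), settings other than leaving out 1 library gave 289 values, of which 257 kept direction and side of the threshold, 2 lost a call, 9 gained one and 21 changed sign. Leaving out 1 library gave 388 values, of which 345 were unchanged in this sense, 18 lost a call, 3 gained one and 22 changed sign. The causes were not tested.

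Genes called among the 10 in 16 L were 5 with limma-voom, which called 63.8% of all genes. They were 0 to 3 over the fits without 1 library. At 16 weeks of HFD they were 1 with DESeq2, with total counts and with all 34 libraries, and 0 to 1 without 1 library. Over all genes, DESeq2 called 9.72%, total counts 1646 of 10861 and all 34 libraries 1258 of 13236. In low weight gainers against HFD, 3 of the 10 were called with limma-voom (Arnt and Egln1 added), which called 29.3% of all genes. The count was 0 where 10 counts were asked of every library (Egln2 was then not tested), and 1 to 2 without 1 library. List genes called in 16 L were 19 (DESeq2), 49 (limma-voom), 20 (total counts), 2 (no filter), 28 (all 34 libraries) and 44 (without replicates 18 and 19). Without 1 library they were 0 to 30. Over all genes, DESeq2 called 22.4%, limma-voom 63.8%, total counts 4035 of 11723 and no filter 504 of 18962. All 34 libraries called 4384 of 13236, and the fit without replicates 18 and 19 called 6290 of 10562. At 16 weeks the list genes called were 8, 14 and 6 (DESeq2, total counts, all 34 libraries), with the shares of all genes given above. Without 1 library they were 0 to 19. In low weight gainers they were 4 against HFD with all 34 libraries and 6 to 23 without 1 library, and against CD 2 (DESeq2) and 1 (limma-voom). Over all genes, the fit of all 34 libraries called 487 of 13236 against HFD. Against CD, DESeq2 called 2.11% and limma-voom 1.84% of all genes.

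Changes of sign are given as log2 fold changes. In 16 L, Egln1 was 0.0089 (limma-voom), 0.74 (total counts), 0.13 (10 counts) and 0.0064 (without replicates 18 and 19), and -0.36 to 0.17 without 1 library. Vegfa was 0.69 (adjusted p = 0.0379), 0.78, 0.00052 and 0.42 in the same settings and -0.37 to 0.35 without 1 library, and Hif1a was -0.15 to 0.38. At 16 weeks, Epas1 was 0.49 (limma-voom) and 0.55 (without CD replicates 1 and 2), and -0.43 to 0.17 without 1 library. Egln1 was -0.022 without CD replicates 1 and 2, and Adm was -0.29 to 0.092 without 1 library. In low weight gainers against HFD, Bnip3 was 0.0035 (DESeq2), 0.057 (limma-voom), 0.0035 (RLE), 0.17 (total counts), 0.0057 (no filter), 0.061 (10 counts) and 0.030 (all 34 libraries), and -0.15 to 0.12 without 1 library, and Vegfa was -0.018 to 0.16. Against CD, Epas1 was 0.13 and Vhl 0.072 without CD replicates 1 and 2, and Egln2 was -0.10 with total counts. Without 1 library, Arnt was -0.45 to 0.021, Vegfa -0.21 to 0.011 and Vhl -0.13 to 0.16.

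Genes called higher and lower over the whole table were 476 and 528 in 16 L (3652 and 383 with total counts), 1 and 2 at 16 weeks (55 and 1591), 1212 and 1118 in low weight gainers against HFD (1585 and 598), and 140 and 359 at 4 weeks (91 and 571). The total of 1004 in 16 L was 2629 with DESeq2, 7474 with limma-voom, 504 with no filter, 4384 with all 34 libraries and 6290 without replicates 18 and 19. The total of 3 at 16 weeks was 1056 with DESeq2, 5 with limma-voom, 13 with no filter, 0 with 10 counts, 1258 with all 34 libraries and 1 without CD replicates 1 and 2. In low weight gainers, 2330 against HFD was 487 with all 34 libraries, and 1 against CD was 245 with DESeq2, 214 with limma-voom, 0 with total counts or 10 counts, 7 with all 34 libraries and 3 without CD replicates 1 and 2. The total of 499 at 4 weeks was 1286 with DESeq2, 4052 with limma-voom and 69 with all 34 libraries. Depth limits Egln3, Adm, Epas1 and Egln2, which had under 20 reads in some libraries (Egln2 had 16 in 16 C replicate 1 and 5 in 16-week HFD replicate 14).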
